A study of Schizosaccharomyces pombe with 8 samples.

Results

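The small nucleolar RNAs (snoRNAs) described here are the 53 rows of the read count tables whose identifier starts with SPSNORNA., out of 6973 rows that name a feature. They were measured in a sequential RNA immunoprecipitation of the fission yeast Schizosaccharomyces pombe, which was made to recover RNAs bound by the RNA-binding proteins Mmi1 and Mei2 together. Cells of the TAP-Mmi1 strain, the strain of interest, carried TAP-tagged Mmi1 under the mild nmt41 promoter (marker kanMX) and 3xFLAG-Mei2 under the strong nmt1 promoter (marker natMX). Cells of the GFP-Mmi1 strain, the negative control, carried the same promoters, markers and 3xFLAG-Mei2, with a GFP tag on Mmi1 in place of TAP. Mei2 was therefore overexpressed in every library, and Mmi1 was not driven by its own promoter in any. Both strains were grown to exponential phase in minimal medium at 30 °C and crosslinked with 0.2% formaldehyde. The TAP tag was bound on IgG beads and cut with TEV protease, and the eluate was passed to anti-FLAG beads, which bind Mei2, so that the immunoprecipitate (IP) of GFP-Mmi1 cells held what came through both steps without a TAP tag. For each strain, the IP and the whole-cell extract (WCE) it was made from were sequenced in 2 replicates, giving 4 groups of 2 libraries. The labels do not say whether the replicates were grown separately, so that p-values measure only the spread between these samples. Totals over the named rows ran from 34415561 to 53703741 counts, which an IP/WCE ratio of raw counts does not correct for. The row of the mmi1 mRNA had IP/WCE ratios of 5.13 and 1.59 with TAP-Mmi1, against 0.0877 and 0.188 with GFP-Mmi1. The row of the mei2 mRNA had 0.282 and 0.183 with TAP-Mmi1, against 0.267 and 0.523 with GFP-Mmi1. Both rows count mRNA and do not measure how much of either protein was recovered.

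snoRNAs are stable nuclear RNAs that guide the chemical modification of ribosomal RNA by base pairing, and a few of them are needed for the cleavage of its precursor. Box C/D snoRNAs carry a C box near the 5′ end and a D box near the 3′ end and direct ribose methylation by fibrillarin. Box H/ACA snoRNAs fold into hairpins, end in an ACA triplet and direct pseudouridylation by Cbf5, the dyskerin orthologue.

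All 53 snoRNAs were found by identifier in the RefSeq annotation of the ASM294v3 genome, and they fell into a short and a long size group with no member between 112 and 142 nt. The long group held 21 snoRNAs of 142 to 488 nt (median 172), of which 19 are annotated as box H/ACA and the others are snR30 and sno16. The short group held 32 snoRNAs of 47 to 112 nt (median 84), of which 27 carried a C box, read with at most 1 mismatch in the first 20 nt, together with a D box in the last 20 nt. Length and box class can therefore not be told apart in these data, and the groups are called long and short. Of the short snoRNAs, 10 lie in an annotated intron and 8 lie within 200 nt of another member on the same strand, against 0 and 0 of the long ones. A row that shares bases with another listed feature can share its reads, and this was so for 20 short and 6 long snoRNAs.

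The sequences of 8 snoRNAs, read from the RefSeq genome ASM294v3 from the 5′ to the 3′ end of the RNA, show the features that separate these groups and the members on which the results turn. Capitals mark the C and D boxes of the box C/D RNAs and the terminal ACA of the box H/ACA RNAs. The first 4 are short. snoU14 (chrII:1308634-1308745, plus strand) had the highest IP/WCE ratio with TAP-Mmi1. snoZ30 (chrII:2044411-2044505, plus strand) had the highest fold over the control among snoRNAs with a count in the control IP. snoR68 (chrII:3944573-3944645, plus strand) and snR41 (chrI:1200168-1200253, plus strand) had control IP counts of 0 or 1.
snoU14: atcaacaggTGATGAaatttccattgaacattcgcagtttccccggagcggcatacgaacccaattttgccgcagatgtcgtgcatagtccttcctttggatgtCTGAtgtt
snoZ30: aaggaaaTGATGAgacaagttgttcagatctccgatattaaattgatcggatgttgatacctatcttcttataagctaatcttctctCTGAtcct
snoR68: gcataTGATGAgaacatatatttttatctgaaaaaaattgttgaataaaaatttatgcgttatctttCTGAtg
snR41: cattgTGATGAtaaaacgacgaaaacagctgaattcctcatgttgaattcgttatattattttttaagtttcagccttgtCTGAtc
The other 4 are long. snR91 (chrI:3316466-3316609, minus strand) and snR3 (chrII:884166-884332, minus strand) combined high ratios with TAP-Mmi1 and with GFP-Mmi1, snR95 (chrII:1468185-1468406, minus strand) was the most abundant, and snR96 (chrI:1451227-1451437, plus strand) was the long snoRNA with the lowest TAP-Mmi1 ratio. No ACA lay at the annotated 3′ end of snR96, so none is marked.
snR91: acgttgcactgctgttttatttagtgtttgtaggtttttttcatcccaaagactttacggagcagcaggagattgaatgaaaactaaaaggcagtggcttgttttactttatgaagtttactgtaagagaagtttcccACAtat
snR3: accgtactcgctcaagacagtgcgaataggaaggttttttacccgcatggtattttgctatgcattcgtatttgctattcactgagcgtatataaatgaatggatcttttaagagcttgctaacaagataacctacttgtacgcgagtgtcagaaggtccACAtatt
snR95: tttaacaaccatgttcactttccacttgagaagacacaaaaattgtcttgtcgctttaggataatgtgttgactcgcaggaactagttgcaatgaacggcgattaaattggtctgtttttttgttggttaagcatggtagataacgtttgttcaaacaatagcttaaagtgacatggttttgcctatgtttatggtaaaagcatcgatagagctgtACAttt
snR96: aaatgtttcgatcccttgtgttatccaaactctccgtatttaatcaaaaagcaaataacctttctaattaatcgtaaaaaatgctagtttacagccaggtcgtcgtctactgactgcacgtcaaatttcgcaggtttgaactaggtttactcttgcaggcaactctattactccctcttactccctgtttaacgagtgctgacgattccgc

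The snoRNAs took a larger share of the IP with TAP-Mmi1 than of any other library. Outside the rRNA rows, the 53 snoRNAs took 6.79% and 10.1% of the counts in TAP-Mmi1 IP libraries and 1.9% and 1.79% in GFP-Mmi1 IP libraries, against 0.429% and 0.459% in TAP-Mmi1 WCE libraries and 0.32% and 0.359% in GFP-Mmi1 WCE libraries. Both IP libraries of each strain were above all 4 WCE libraries, and both TAP-Mmi1 IP libraries were above both GFP-Mmi1 IP libraries. The long snoRNAs made up most of this, with 6.36% and 9.48% in TAP-Mmi1 IP libraries and 1.84% and 1.72% in GFP-Mmi1 IP libraries. Short snoRNAs took 0.427% and 0.65% in TAP-Mmi1 IP libraries and 0.0642% and 0.0651% in GFP-Mmi1 IP libraries. rRNA rows themselves took 79.2% and 82.0% of the counts in TAP-Mmi1 IP libraries and 96.4% and 96.0% in GFP-Mmi1 IP libraries, against 7.98% to 27.4% in the WCE libraries, from which rRNA had been depleted before sequencing. A level in the IP is thus read here either relative to the WCE of the same extract or relative to the control.

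**Figure D1:**
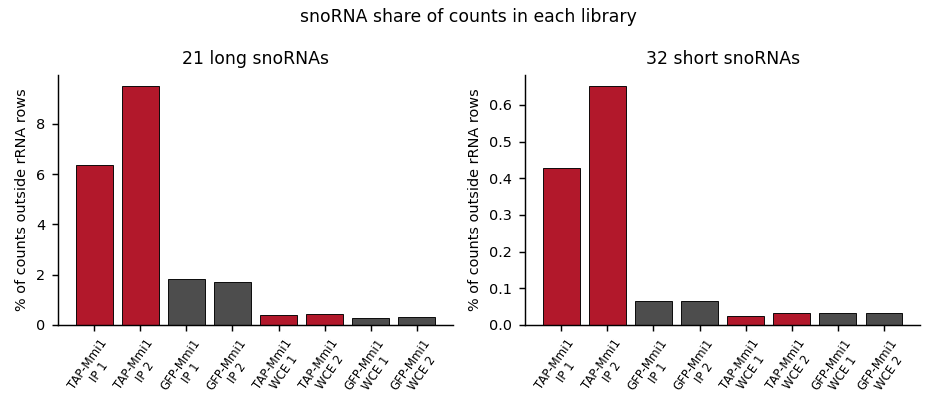
Percentage of the counts outside rRNA rows taken by the 21 long (left) and 32 short (right) snoRNAs in each of the 8 libraries, with red bars for TAP-Mmi1 and grey bars for GFP-Mmi1. The TAP-Mmi1 IP bars reach 6.36% and 9.48% for the long and 0.427% and 0.65% for the short snoRNAs, above all other bars of their panel, and the panels have different scales.

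Levels in the WCE differed widely between members. Per nt, and with the 4 WCE libraries scaled to their mean total, snR95 averaged 318 ± 46.4 counts per nt (SD, n = 4), snR30 55.5 ± 11.3 and snR3 35.2 ± 13.6, and the spreads of snR3 and of the next, snR42 at 34.2 ± 9.43, overlapped. At the other end, snr62 averaged 0.43 ± 0.0819, snR90 0.582 ± 0.0654 and snR70 0.629 ± 0.102 counts per nt. The median was 6.53 counts per nt over the long and 2.13 over the short snoRNAs. In raw counts, snR95 alone had 254256 and 318923 in TAP-Mmi1 IP libraries and 10934 and 10732 in GFP-Mmi1 IP libraries, with 103839 and 72789 in TAP-Mmi1 WCE libraries and 51867 and 57747 in GFP-Mmi1 WCE libraries. By contrast, the median snoRNA had 310 counts in TAP-Mmi1 IP libraries (mean of the replicates) and 12 in GFP-Mmi1 IP libraries, with 356 in TAP-Mmi1 WCE libraries and 298 in GFP-Mmi1 WCE libraries. The lowest count of a snoRNA in a WCE library was 27. In the GFP-Mmi1 IP, however, 12 of the 53 had a count of 0 in at least 1 replicate, 11 of them short, and 18 had at most 10 counts in both. A count of 0 there allows up to 3 counts, or 8.72e-06% of the library, and this limit covers counting error only.

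The levels in the WCE were compared between the strains to see whether the input itself differed. With edgeR's quasi-likelihood test on TMM-scaled counts, 0 of the 53 snoRNAs differed between the TAP-Mmi1 and the GFP-Mmi1 WCE at an adjusted p under 0.05, where 0.293% of the 6827 features tested were higher and 0.0586% lower. At an unadjusted p under 0.05 there were 8, where 8.94% of all features passed. Of these, 7 were long and 1 short, and all were higher in TAP-Mmi1 cells. They included sno12 and sno16, with log2 differences of 1.07 ± 0.27 and 0.97 ± 0.27 (SE). DESeq2 called 5, all higher in TAP-Mmi1 cells, where it called 3.91% of all features higher and 1.52% lower. The median log2 difference was 0.5 for the long and 0.05 for the short snoRNAs, against -0.01 over all features, and 18 of the 21 long and 18 of the 32 short snoRNAs were above 0. The widest difference was that of sno20, annotated as the counterpart of snR35, a box H/ACA RNA that guides pseudouridylation of the small-subunit rRNA in budding yeast. It had 1303 and 2512 counts in TAP-Mmi1 WCE libraries, against 477 and 515 in GFP-Mmi1 WCE libraries, a log2 difference of 1.77 ± 0.37 (SE, adjusted p = 0.14, edgeR).

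For most snoRNAs, more counts were recovered in TAP-Mmi1 IP libraries than in the WCE of the same extract. Few other RNAs outside the rRNA rows showed this. Both TAP-Mmi1 replicates had an IP/WCE ratio of raw counts above 1 for 28 of the 53 snoRNAs, of which 19 were long and 9 short, against 4.52% of the 6898 features with a ratio in every replicate. The same held for 44 of the 49 rRNA rows and 2 of the 7 snRNA rows. The median ratio of the long snoRNAs was 2.13 and 3.29 in the TAP-Mmi1 replicates and 0.211 and 0.16 in the GFP-Mmi1 replicates. Over the short snoRNAs it was 0.654 and 1.07 with TAP-Mmi1, against 0.0375 and 0.0222 with GFP-Mmi1. Medians of the mean ratio over the 5105 mRNA rows were lower, at 0.125 with TAP-Mmi1 and 0.0278 with GFP-Mmi1, and those of the lncRNA rows were 0.229 and 0.0305. The snRNA rows had 0.73 with TAP-Mmi1, near the 0.79 of the short snoRNAs. With GFP-Mmi1 they had 0.119, above the 0.0353 of the short snoRNAs. The 2 long snoRNAs below 1 were snR96 and snR97. In the control, every snoRNA was below 1 in both replicates except sno20, which had 1.18 in replicate 1.

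Summed over the members, the IP held 2.61 and 4.14 times the counts of the WCE with TAP-Mmi1, and 0.221 and 0.212 times with GFP-Mmi1. The replicates did not overlap, and an exact permutation test of 2 against 2 replicates gave p = 0.333, two-sided, the smallest p it allows. These sums were carried mostly by snR95 and snR30 among the long and by snoU14 among the short snoRNAs. For 51 of the 53 snoRNAs, both TAP-Mmi1 ratios were above both GFP-Mmi1 ratios, where 89% of all features were so separated. The exceptions were snoR54 and snoR54b. The mean TAP-Mmi1 ratio was a median of 15.8 times the mean GFP-Mmi1 ratio, with quartiles of 11.2 and 28.7 times.

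**Figure D2:**
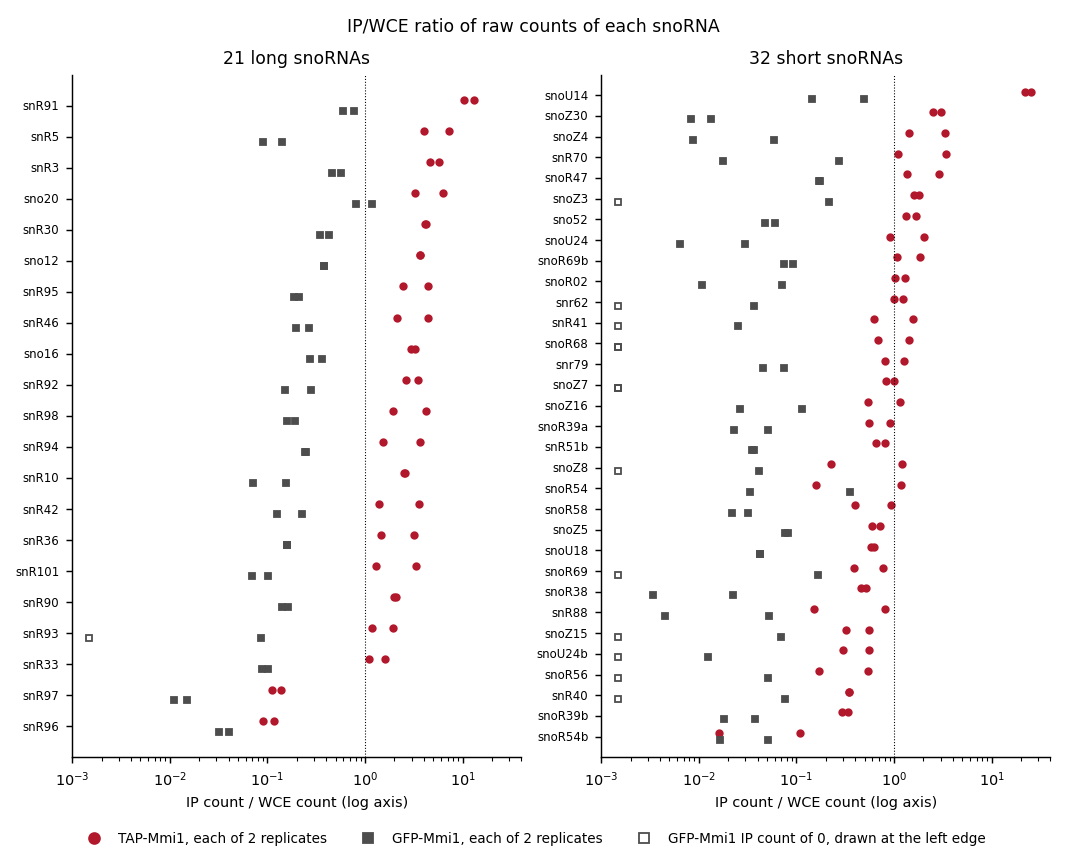
IP count divided by WCE count of the same extract (log axis) for each of the 21 long (left) and 32 short (right) snoRNAs, with red circles for the 2 TAP-Mmi1 replicates, grey squares for the 2 GFP-Mmi1 replicates and open squares at the left edge for a GFP-Mmi1 IP count of 0. The circles lie right of the squares for 51 of the 53 snoRNAs, where 89% of all features were so separated. The long snoRNAs sit further right than the short ones in both strains.

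The IP was then set against the WCE within each strain, on counts scaled with TMM factors, which place the typical feature near 0. With TAP-Mmi1, 44 of the 53 snoRNAs were higher in the IP and 0 lower at an adjusted p under 0.05 (edgeR), where 29.2% of all features were higher and 30.7% lower. The median log2 IP/WCE was 4.38 over the long and 2.44 over the short snoRNAs, against -0.01 over all features. With GFP-Mmi1, 22 snoRNAs were higher and 1, snoR68, was lower, where 11.1% of all features were higher and 6.44% lower. Of the long snoRNAs, 18 of 21 were higher in the control IP (median 2.6), and of the short ones 4 of 32 (median 0.29). Of the 7 snRNA rows, 6 were higher with TAP-Mmi1 (median 2.39) and 4 with GFP-Mmi1 (median 2.04). The snoRNAs higher in the control were 14 without GFP-Mmi1 replicate 2, where 3.84% of all features were higher.

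These directions are relative to the scaling. With library totals only, which count the rRNA reads of the IP, the median log2 IP/WCE of all features was -2.37 with TAP-Mmi1 and -5.05 with GFP-Mmi1, and 24 snoRNAs were then higher and 4 lower with TAP-Mmi1, where 3.95% of all features were higher and 84.7% lower. With GFP-Mmi1, 0 were higher and 51 lower under library totals, where 0.747% of all features were higher and 98.2% lower, so that the count of lower snoRNAs was near that of features in general. Relative to the median of all features, the snoRNA median was 3.38 with TAP-Mmi1 and 1.08 with GFP-Mmi1 under either scaling.

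The gap between the size groups does not depend on library scaling, which cancels between members of one library. The median log2 IP/WCE of the long snoRNAs exceeded that of the short ones by 1.7 and 1.62 in the TAP-Mmi1 replicates and by 2.29 and 2.68 in the GFP-Mmi1 replicates (0.5 counts added to each). The gap was wider in both control replicates than in both TAP-Mmi1 replicates, with p = 0.333 in the exact two-sided permutation test, again the smallest it allows. Within the long group, snoRNAs with a high control ratio also had a high TAP-Mmi1 ratio (Spearman's rho = 0.83 over 21 snoRNAs, a description across RNAs of the same libraries), whereas over the 32 short ones rho was 0.24. Control ratios of the short snoRNAs rested on few counts, with a median of 6.5 in GFP-Mmi1 IP libraries (mean of the replicates) against 259 for the long ones.

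**Figure D3:**
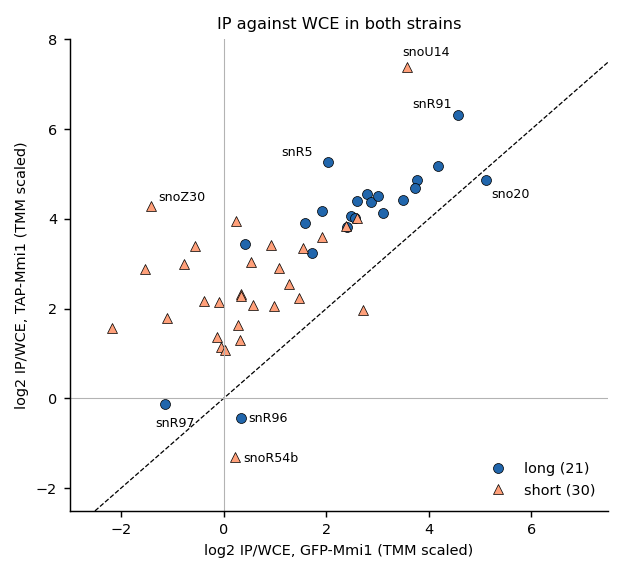
log2 IP/WCE with TAP-Mmi1 (y axis) against GFP-Mmi1 (x axis), both TMM scaled, for 21 long (circles) and 30 short (triangles) snoRNAs, with the dashed line at equal values. snoZ7 and snoR68 have 0 control IP counts and are not drawn. Long snoRNAs lie further right and higher (medians 2.6 and 4.38) than short ones (0.29 and 2.44). With library totals only, 51 snoRNAs are called lower in the control IP than in its WCE, where 98.2% of all features are.

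The enrichment over the control was taken by subtracting the log2 IP/WCE of GFP-Mmi1 cells from that of TAP-Mmi1 cells. On TMM-scaled counts, it tests whether recovery with TAP-Mmi1 over the control differed from that of the typical feature. A value below 0 thus does not by itself mean less recovery than in the control. By this test, 31 of the 53 snoRNAs were higher and 0 lower at an adjusted p under 0.05 (edgeR), where 18.9% of all features were higher and 23.7% lower. The median was 1.59 on the log2 scale, against -0.05 over all features. The 7 snRNA rows, which include both copies of the snoRNA U3, had a median of 0.57, with 0 higher and 1 lower. The long group had 14 of 21 higher with a median of 1.5, and the short group 17 of 32 with a median of 1.89. The medians keep these values when the 2 snoRNAs with no control IP count, snoZ7 and snoR68, are set at their lower bounds. The order of the size groups in the IP/WCE ratio, long above short in both strains, was thus not seen in the enrichment, and the difference between the groups' medians was not tested.

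With library totals only, 51 snoRNAs were higher and 0 lower, where 89.5% of all features were higher and 0.469% lower, a share near that of the snoRNAs. The median of all features was then 2.63, so that the snoRNA median stood 1.66 above it, against 1.64 with TMM factors. Leaving out rRNA rows before normalization gave 31 calls, where 22.1% of all features were higher. With an extract left out, its arm had 1 extract and the spread was pooled from the other groups. Without TAP-Mmi1 replicate 1, 20 snoRNAs and 9.5% of all features were called higher, and without TAP-Mmi1 replicate 2, 15 snoRNAs and 8.43% of all features. Without GFP-Mmi1 replicate 1, 20 snoRNAs and 19.2% of all features were called higher, and without GFP-Mmi1 replicate 2, 17 snoRNAs and 17.4% of all features. Over these fits the log2 enrichment ran from 5.37 to 6.1 for snoZ30, 2.92 to 3.64 for snR5 and 2.14 to 2.95 for sno52. It ran from 1.9 to 2.8 for snR101, 1.74 to 2.8 for snR10 and 1.63 to 2 for snR95. The range was wider for snoU24, at 3.33 to 5.58. For snoR68 and snoZ7, with 0 counts in both control IP libraries, the fitted values depend on the prior count. With the extract as a block, 31 were called, where 15.6% of all features were higher. Of these, 26 were shared, snR41, snr62, snoU24b, snR93 and snoR39a (adjusted p = 0.125) being lost and snR3, sno12, sno16, snR36 (0.0211) and snoR47 (0.00432) gained.

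**Figure D4:**
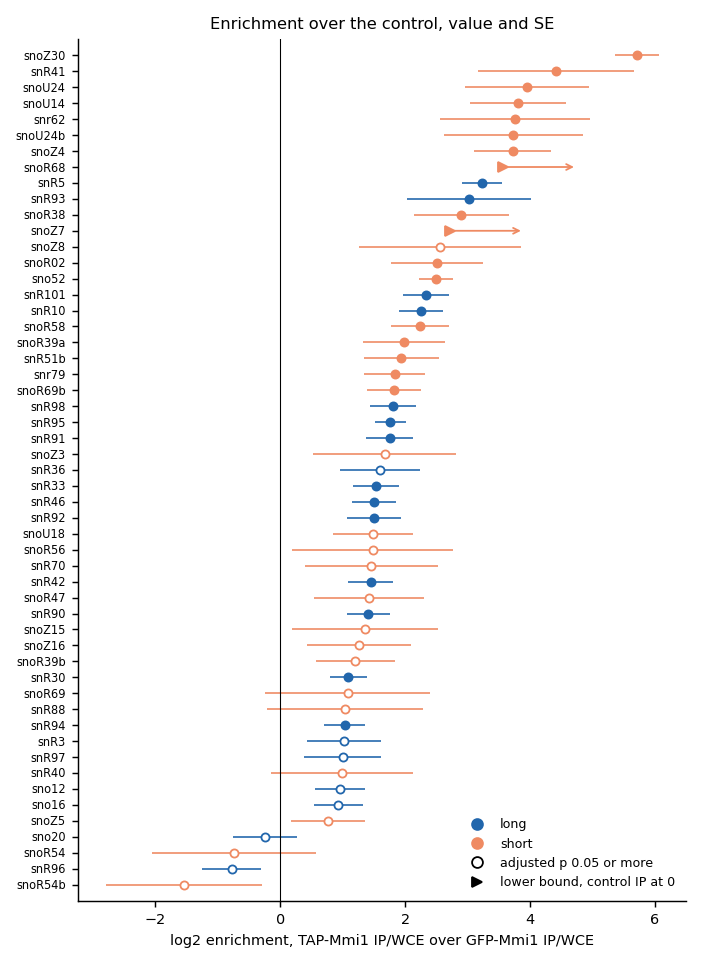
log2 enrichment of each snoRNA over the control with its SE (bars), from edgeR on TMM-scaled counts, in blue for the long and orange for the short snoRNAs, filled where the adjusted p is under 0.05. Arrowheads mark lower bounds for snoR68 (3.56) and snoZ7 (2.71). 49 of the 53 values are above 0, where 3280 of the 6827 features were. The other 4, sno20, snoR54, snR96 and snoR54b, rise above 0 with library totals only, where the median of all features rises to 2.63.

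Among the snoRNAs with a count in the control IP, the highest fold over the control was that of snoZ30, a box C/D snoRNA. It had 1150 and 1186 counts in TAP-Mmi1 IP libraries and 2 and 3 in GFP-Mmi1 IP libraries, with 463 and 395 in TAP-Mmi1 WCE libraries and 243 and 228 in GFP-Mmi1 WCE libraries. Its IP/WCE ratios of 2.48 and 3.0 with TAP-Mmi1 stood against 0.00823 and 0.0132 with GFP-Mmi1, so that few of its reads came through in the control although its input was well counted. The log2 enrichment was 5.71 ± 0.35 (SE, adjusted p = 3.74e-05, edgeR), and with each extract left out in turn it stayed between 5.37 and 6.1.

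snoU14, a box C/D snoRNA required for maturation of the small-subunit rRNA in budding yeast, had the highest IP/WCE ratio of the class. Its counts were 22685 and 29309 in TAP-Mmi1 IP libraries and 84 and 347 in GFP-Mmi1 IP libraries, with 1035 and 1156 in TAP-Mmi1 WCE libraries and 582 and 699 in GFP-Mmi1 WCE libraries. The ratio was thus 21.9 and 25.4 with TAP-Mmi1, against 0.144 and 0.496 with GFP-Mmi1. The control replicates were further apart than the TAP-Mmi1 replicates, and their mean of 0.32 was the highest of the short snoRNAs. The log2 enrichment was 3.8 ± 0.77 (SE, adjusted p = 0.00583, edgeR), and the call was lost without TAP-Mmi1 replicate 1 (adjusted p = 0.0849) or replicate 2 (adjusted p = 0.0868). The row UpsnoU14, named for the transcript upstream of snoU14, had ratios of 12.8 and 19.3 with TAP-Mmi1, below those of snoU14, and of 0.136 and 0.576 with GFP-Mmi1. It had 177540 and 190526 counts in TAP-Mmi1 IP libraries, against 1017 and 4526 in GFP-Mmi1 IP libraries, and a log2 enrichment of 3.11 (adjusted p = 0.0177, edgeR). By mapping of RNA ends and Northern blot, the study found the upstream transcript to be a separate RNA, with ends distinct from those of snoU14. It also proposes that this transcript might be cut from a longer precursor that holds snoU14 too. Counts of snoU14 may thus include reads of such an RNA, which was not tested.

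The other short snoRNAs with large values rested on few control counts. snoZ7 had 182 and 113 counts and snoR68 had 92 and 135 counts in TAP-Mmi1 IP libraries, and both had 0 and 0 in GFP-Mmi1 IP libraries. Against a floor of 3 counts per control IP library, the mean ratio was at least 31.5-fold higher with TAP-Mmi1 for snoZ7 and at least 60.0-fold higher for snoR68. The fitted log2 values of such rows depend on the prior count and are not given. snR41 had 44 and 82 counts in TAP-Mmi1 IP libraries, against 1 and 0 in GFP-Mmi1 IP libraries, and a log2 enrichment of 4.42 ± 1.25 (SE, adjusted p = 0.0237, edgeR), which missed the threshold with the extract as a block (adjusted p = 0.0748). It also missed it without TAP-Mmi1 replicate 1 (0.054), TAP-Mmi1 replicate 2 (0.101) or GFP-Mmi1 replicate 2 (0.128). snoU24, which guides methylation of the large-subunit rRNA in budding yeast and at 47 nt was the shortest member, had 88 and 213 counts in TAP-Mmi1 IP libraries, against 1 and 6 in GFP-Mmi1 IP libraries. Its enrichment was 3.95 ± 0.99 (SE, adjusted p = 0.0147, edgeR), and the adjusted p was 0.0533 and 0.0848 without either TAP-Mmi1 replicate and 0.0633 without GFP-Mmi1 replicate 1.

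Among the 16 short snoRNAs with at most 10 counts in both control IP libraries, 9 were called higher, with a median SE of 1.19 on the log2 scale, and among the other 16 short ones, 8 were called with a median SE of 0.68. Differences of the size of the larger SE were not detectable at these counts. The snoRNAs with a count of 0 in 1 control IP library were snR41, snr62, snoU24b, snR93, snoZ8, snoZ3, snoR56, snoR69, snR40 and snoZ15. Of these, snr62, snoU24b and snR93 were called, with enrichments of 3.76, 3.73 and 3.02, and with the extract as a block they were not (adjusted p = 0.148, 0.105 and 0.0675). With an extract left out, snr62 was called in 0 and snoU24b and snR93 each in 1 of the 4 fits, and their enrichments ranged from 2.64 to 10.37, from 2.77 to 10.19 and from 1.86 to 12.43. The upper end of each is a fitted value against a control count of 0, which depends on the prior count. The remaining 6 besides snR41 had enrichments between 0.99 and 2.56 and were not called. Leaving out a control extract moved them as far as -0.45 for snoR69 at the low end and 12.04 for snoZ3 at the high end, where the control count was again 0, and snoZ3 was then called (without GFP-Mmi1 replicate 2, adjusted p = 0.00829, edgeR).

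The long snoRNAs with known roles in rRNA processing were recovered in both strains, more so with TAP-Mmi1. snR30, the homologue of vertebrate U17 and a box H/ACA snoRNA required for cleavage of the small-subunit rRNA precursor in budding yeast, had 93610 and 108849 counts in TAP-Mmi1 IP libraries and 4400 and 5381 in GFP-Mmi1 IP libraries. Its ratios were 4.08 and 4.18 with TAP-Mmi1, against 0.349 and 0.427 with GFP-Mmi1, and the replicates of each strain lay close together. The log2 enrichment was 1.09 ± 0.3 (SE, adjusted p = 0.0205, edgeR), and it was called in 1 of the 4 fits with an extract left out, the adjusted p being 0.0759 without TAP-Mmi1 replicate 1, 0.136 without GFP-Mmi1 replicate 1 and 0.0616 without GFP-Mmi1 replicate 2. snR10, a box H/ACA RNA that in budding yeast also takes part in precursor cleavage, had ratios of 2.51 and 2.57 with TAP-Mmi1, against 0.156 and 0.0718 with GFP-Mmi1. Its enrichment of 2.25 ± 0.35 (SE, adjusted p = 0.00169, edgeR) held in all 4 such fits.

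snR91 had the second highest ratio of the class and the highest of the long group. Its counts were 6864 and 7930 in TAP-Mmi1 IP libraries and 272 and 246 in GFP-Mmi1 IP libraries, with 520 and 770 in TAP-Mmi1 WCE libraries and 352 and 413 in GFP-Mmi1 WCE libraries. The ratios of 13.2 and 10.3 with TAP-Mmi1 were accompanied by control ratios of 0.773 and 0.596, the second highest of all snoRNAs. The enrichment was 1.75 ± 0.38 (SE, adjusted p = 0.00835, edgeR), within the range of the other long snoRNAs, and it missed the threshold without GFP-Mmi1 replicate 1 (0.0519) or replicate 2 (0.0831). snR5, a pseudouridylation guide of the large-subunit rRNA in budding yeast, showed the opposite combination. Its ratios were 4.02 and 7.24 with TAP-Mmi1, but 0.0894 and 0.142 with GFP-Mmi1, giving the largest enrichment of the long group, 3.23 ± 0.32 (SE, adjusted p = 0.00023, edgeR).

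snR3, sno12 (annotated as snR99) and sno16 had high ratios in both strains and enrichments near 1 that were not called in the fit without a block. snR3 had ratios of 4.64 and 5.71 with TAP-Mmi1, against 0.463 and 0.562 with GFP-Mmi1. sno12 had 3.68 and 3.66 with TAP-Mmi1, against 0.379 and 0.377 with GFP-Mmi1. For sno16 the values were 3.27 and 2.92 with TAP-Mmi1, against 0.275 and 0.361 with GFP-Mmi1. For each of them the replicates of the strains did not overlap. The log2 enrichments were 1.02 ± 0.6, 0.95 ± 0.4 and 0.93 ± 0.39 (SE, adjusted p = 0.21, 0.0904 and 0.0919, edgeR), and with the extract as a block the adjusted p was 0.00471, 0.00706 and 0.00602.

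At the low end, 4 snoRNAs had a log2 enrichment below 0, none of which was called, and all 4 rose above 0 with library totals only, though not above the median of all features in that fit. sno20 had the highest control ratios of the class, 1.18 and 0.802 with GFP-Mmi1, beside 6.23 and 3.23 with TAP-Mmi1, and an enrichment of -0.24 ± 0.51 (SE). snR96 had 103 and 160 counts in TAP-Mmi1 IP libraries and 34 and 26 in GFP-Mmi1 IP libraries, with 1134 and 1363 in TAP-Mmi1 WCE libraries and 849 and 810 in GFP-Mmi1 WCE libraries. Its ratios were 0.0908 and 0.117 with TAP-Mmi1, against 0.04 and 0.0321 with GFP-Mmi1, and its enrichment was -0.78 ± 0.47 (SE, adjusted p = 0.218, edgeR). Unlike the rest of the long group, snR96 and snR97 had TAP-Mmi1 ratios near the mRNA median of 0.125. Both overlap other listed features, so that their counts may hold reads of those features. For snR96 this is a protein-coding gene on the opposite strand. For snR97 it is a lncRNA on the same and a protein-coding gene on the opposite strand. The long snoRNAs snR36, snR90, snR92 and sno20 also overlap a listed feature, with mean TAP-Mmi1 ratios of 2.32, 2.01, 3.07 and 4.73. Whether overlap bears on the low ratios was not tested. snoR54 and snoR54b had at most 19 counts in either control IP library, and their enrichments were -0.74 ± 1.31 and -1.54 ± 1.25 (SE). The next lowest was snoZ5, at 0.76 ± 0.59 (SE, adjusted p = 0.332, edgeR).

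The rule of the study for retained features, a relative SD of the TAP-Mmi1 ratio under 0.3 and a mean ratio over 2 times the control, kept 24 of the 53 snoRNAs, 11 long and 13 short, where 58.9% of all features were kept. The spread of the replicates decided this, since 29 snoRNAs had a relative SD of 0.3 or more and only snoR54b had a fold of 2 or less. The nearest values on either side of the limit were those of snR33 (0.262) and snr79 (0.309). The TAP-Mmi1 ratios of the replicates were over 2-fold apart for 19 snoRNAs, 6 long and 13 short, and at most 7.47-fold apart.

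Short snoRNAs that lie inside other transcripts were set beside these transcripts. For 9 of the 10 intronic snoRNAs, the snoRNA row had a higher IP/WCE ratio than the row of its host gene in both TAP-Mmi1 replicates, and for 4 of the 10 in both GFP-Mmi1 replicates. The median over the 10 was 0.633 for the snoRNAs and 0.111 for the hosts with TAP-Mmi1. snoU24b lies in an intron of cpc2, which encodes the ribosome-associated RACK1 orthologue. It had ratios of 0.297 and 0.554 with TAP-Mmi1, while cpc2 itself had 0.0358 and 0.035. For snoR39b, in an intron of the ribosomal protein gene rpl701, the ratios were 0.292 and 0.335, while rpl701 had 0.0247 and 0.0324. The exception was snoZ15, at 0.554 and 0.32 in an intron of pfd1, which had 0.297 and 0.36. The host rows may include reads of the snoRNA, and these ratios were not tested against each other.

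Of the 8 members inside a listed noncoding transcript on the same strand, 4 had a higher ratio than it in both TAP-Mmi1 replicates. snoZ8, snoZ7, snoZ5, snoZ4 and snoZ3 lie in this order, each within 200 nt of the next, in the lncRNA snoZ (SPNCRNA.659), which had ratios of 0.787 and 1.29 with TAP-Mmi1, against 0.0343 and 0.0247 with GFP-Mmi1. The ratios with TAP-Mmi1 were 1.43 and 3.35 for snoZ4 and 1.79 and 1.6 for snoZ3, above those of the transcript in both replicates, and 0.601 and 0.725 for snoZ5, below it in both. snoZ30 lies in SPNCRNA.1483, annotated as a snoRNA primary transcript, whose ratios of 1.75 and 2.49 with TAP-Mmi1, against 0.0185 and 0.0336 with GFP-Mmi1, gave a log2 enrichment of 4.03 (adjusted p = 6.6e-05, edgeR). The control ratio of snoZ30 was lower than that of this transcript in both replicates, and its TAP-Mmi1 ratio higher in both.

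**Figure D5:**
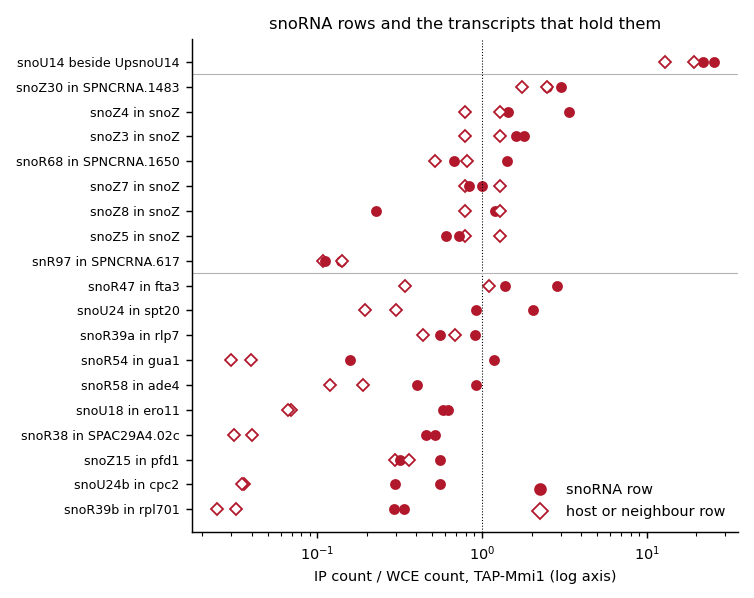
IP count divided by WCE count with TAP-Mmi1 (log axis, 2 replicates each) for snoRNA rows (filled circles) and for the row that holds them or, for snoU14, lies beside it (open diamonds). Of the 10 intronic snoRNAs in the lower block, 9 lie right of their host gene in both replicates, whereas of the 8 within a lncRNA 4 do.

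Some snoRNAs are listed under other identifiers. U3, the box C/D RNA that base pairs with the rRNA precursor for its early cleavages, is listed among the snRNA rows. Its copy snu3 had ratios of 1.44 and 1.28 with TAP-Mmi1, against 0.19 and 0.166 with GFP-Mmi1, and the copy snu32 had 0.54 and 0.908 with TAP-Mmi1, against 0.141 and 0.0969 with GFP-Mmi1. Their log2 enrichments of 0.57 and 0.34 were not called (adjusted p = 0.366 and 0.632, edgeR) and lay below the lower quartile of the 53 snoRNAs, 1.09. snR191, listed among the lncRNAs, had 2.25 and 5.64 with TAP-Mmi1, against 0.382 and 0.273 with GFP-Mmi1, and a log2 enrichment of 1.25 (adjusted p = 0.056, edgeR). snoR61, also listed there, had a log2 enrichment of 1.13 (adjusted p = 0.0576, edgeR). SPNCRNA.498, annotated as a candidate snoRNA, was called, at 2.4 (adjusted p = 0.0264, edgeR), with 20 and 3 counts in GFP-Mmi1 IP libraries.

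mRNAs of the snoRNA machinery were tested in the same edgeR fit. In the enrichment over the control, 17.5% of all mRNA rows were higher and 27% lower. Of 13 mRNAs for snoRNP proteins, 1 was higher and 4 were lower, with a median log2 enrichment of -0.63. The lower ones were nop56 (-1.29) and nop58 (-1.35) of box C/D and cbf5 (-1.81) and gar1 (-1.49) of box H/ACA particles, which encode core proteins. The other core proteins listed were not called, namely fib1 (-0.63, adjusted p = 0.0626, edgeR), snu13 (-1.09, 0.0851), nhp2 (-0.46, 0.331) and nop10 (-0.12, 0.782). The higher one was rrp9 (1.51), which encodes a U3-specific protein. Of 8 mRNAs for snoRNA 3′ end processing factors, pac1 (1.93), the RNase III that cleaves snoRNA precursors, and cid14 (1.00), a poly(A) polymerase of the TRAMP complex, were higher, while dhp1 (-0.71), mtr4 (-1.2) and seb1 (-1.06) were lower, with a median of -0.17. These counts too stand beside 17.5% of all mRNA rows higher and 27% lower. With library totals only, the median of all features rises to 2.63, so that these signs hold relative to the typical feature only.

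Sequence motifs of Mmi1 and Mei2 were counted on the RNA strand of each snoRNA. TNAAAC, which reads UNAAAC in RNA and is bound by the YTH domain of Mmi1, lay in 6 of 32 short snoRNAs (18.8%) and 7 of 21 long ones (33.3%), beside 14.5% of 84-nt and 28.1% of 172-nt windows tiled over both strands of the genome. TTTG, TTGG or TTAG, which can overlap each other and are read here as Mei2 motifs, lay in 21 short (65.6%) and 19 long snoRNAs (90.5%), beside 73.4% and 92.9% of such windows. Neither snoU14 nor snoZ30 held TNAAAC. The 13 snoRNAs with TNAAAC had a median log2 enrichment of 1.45, with 8 called, and the 40 without it had 1.71, with 23 called.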

How the data were processed

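The counts used here are the read counts per feature that the authors deposited, raw and not normalized, for 8 libraries in 4 groups. Per the submitters' notes, reads of 75 nt, paired, were made with bcl2fastq 2.18.12, trimmed with cutadapt 1.15, aligned with Bowtie2 and counted with MulticovBed on Galaxy. The genome build, the strand setting and the handling of reads with several alignments are not given in the sources used here. Reads of overlapping features can therefore not be told apart. The row that names no feature held 0.00177% to 0.0552% of the counts and was left out.

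IP/WCE ratios were taken from raw counts, for the IP and the WCE of one extract. Counts were tested with edgeR 4.0.16 (R 4.3.3, limma 3.58.1): features were filtered by group (6827 tested, all 53 snoRNAs among them), scaled with TMM factors and fitted with the robust quasi-likelihood model over 4 groups, with Benjamini-Hochberg adjustment over all features tested and a threshold of 0.05. The SE is the log2 value divided by the root of F. The script was tested on simulated counts. Ratios, sequences and figures were made with Python 3.11.15, pandas 2.3.3, numpy 2.4.6, scipy 1.17.1 and matplotlib 3.10.9. Members were matched by identifier to RefSeq ASM294v3, and coordinates are of that build.

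The IP and the WCE with the same strain and number come from one extract, which pairs them by design. The correlation of their deviations from the group means over 5608 features was 0.149 for TAP-Mmi1 and 2.23e-05 for GFP-Mmi1. The alternatives were library totals, DESeq2 1.42.0, no filter, TMM factors from mRNA rows, leaving out rRNA rows, blocks by extract or replicate number, leaving out each replicate, and other limits of the ratio rule. The named snoRNAs were those tied to rRNA processing, the 5 highest and 5 lowest enrichments, the extremes of the control ratio and of the WCE counts, and those with an IP count of 0. Others named in the text, such as sno52, snR101, snR36, snoR39a, snR90, snR70 and the host transcripts, were named after their values were seen. The members and lists were chosen with earlier results of these data known. The split by length at 120 nt, the C box with 1 mismatch, the comparison with host transcripts and the split by TNAAAC were chosen after seeing the data. The length split replaced a rule on box sequences that put the short snoZ4, snoZ5 and snoR54b with box H/ACA.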

Additional observations from a re-analysis of the deposited data

How the results depend on the processing

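With library totals only, 51 snoRNAs were called in the enrichment (median 4.29), where 89.5% of all features were higher. In the TAP-Mmi1 IP against the WCE, 28 were called (24 higher, 4 lower), where 3.95% of all features were higher and 84.7% lower. In the GFP-Mmi1 IP against the WCE, 51 were called (0 higher, 51 lower), where 98.2% of all features were lower. DESeq2 called 5 in the WCE between the strains, all higher, where it called 3.91% of all features higher. With an extract left out, the enrichment was called for 15 to 20 snoRNAs, with medians from 1.69 to 1.91, and the GFP-Mmi1 IP against the WCE for 14 to 19. Enrichments changed sign with library totals only for sno20 (2.49), snoR54 (1.93), snR96 (1.93) and snoR54b (1.07), where the median of all features was 2.63. Among all 53, with an extract left out, the sign changed for sno20 (range -0.75 to 0.66, 0.66 without TAP-Mmi1 replicate 2 and 0.02 without GFP-Mmi1 replicate 1), for snoR54 (-2.24 to 1.77, 0.19 without TAP-Mmi1 replicate 1 and 1.77 without GFP-Mmi1 replicate 2), for snoR69 (-0.45 to 10.5) and snR40 (-0.1 to 9.54), and for snR88 (1.04 in the full data, -0.09 without TAP-Mmi1 replicate 1). The lower values of snoR69 and snR40 were those without GFP-Mmi1 replicate 2, and the higher ones were set against a control count of 0. The cause was not tested. Of 308 alternative values for the 28 named snoRNAs, 248 kept their direction and side of the threshold. The ratio rule kept 21 to 28 snoRNAs under the scalings and limits tried, against 24.

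The block by extract gave 31 enrichment calls, 26 of them shared, where 15.6% of all features were higher. It could not be fitted to the WCE of the strains. The block by replicate number, which the labels do not pair across strains (r = -0.0332 for IP and 0.0505 for WCE), gave 30. In that fit, 1144 of the 6827 features were higher. A left-out extract leaves 1 in its arm, whose spread is assumed to be like that of the others. Control IP counts of 10 or less limit 18 snoRNAs.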
